A study of Mus musculus with 22 samples.

Results

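The cells described here are the 279 cells that the authors' deposited cell table places in the cluster named PGCs, for primordial germ cells. They were taken by that name alone, with no filter on any gene, and make up 0.359% of the 77674 cells in the table. All 279 lie in graph cluster number 2 of the same table, which holds 9217 cells and consists mostly of cells named Primitive Streak (8540), with 398 named Epiblast. The name is the authors' and rests on gene expression, so the levels that set this cluster apart from the other 24 cell types are described here and not tested.

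Primordial germ cells are the embryonic founders of sperm and eggs. In the mouse they are set aside from the posterior epiblast around gastrulation, when BMP signals induce Prdm1 (also called Blimp1), Prdm14 and Tfap2c (AP2γ), a trio of regulators that shut off the somatic programme. The cells then turn on germ cell genes such as Dppa3 (Stella) and Nanos3, keep or regain pluripotency genes such as Pou5f1, Nanog and Sox2, and lower the DNA methyltransferases that the epiblast uses. Naive embryonic stem cells share much of that gene set, including Dppa3, Dppa5a and Zfp42, so these genes alone do not tell germ cells from naive cells.

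Gastruloids are embryonic stem cell aggregates grown in culture, in which germ layer derivatives of the gastrulating embryo arise. All of them came from the mouse line E14Tg2A, labelled wild type. Each began with 300 cells in a well, aggregated for 48 h and then received a pulse of 3 µM CHIR99021, a GSK3 inhibitor that activates Wnt signalling, so every group shared the line and this treatment, and the groups differ in age and experiment. The 10X experiment has 1 lane of day 3 and 1 of day 4, MULTI-seq 1 has 3 lanes of day 5, and MULTI-seq 2 has pools B and C of days 4 and 4.5 with 2 lanes each, and 4 further samples of days 3 and 3.5, of the 22 in the labels, that have no cell in the table used and were not analysed here. MULTI-seq 3 has a day 3 pool (2 lanes), a pool of days 3.5 and 4 (4 lanes) and a pool of days 4.5 and 5 (3 lanes). In MULTI-seq a lipid-anchored DNA barcode marks the cells of each gastruloid before pooling. A lane is a technical split of its pool, so the spread between lanes covers capture and counting, while the spread between gastruloids covers separate aggregates of 1 cell line.

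Across the 18 lanes the matrices held 6.47e+07 to 3.08e+08 UMIs (unique molecular identifiers, each standing for 1 captured RNA molecule). The cluster's cells had a median of 33890 UMIs each, with 5191 in the shallowest and 136224 in the deepest. Its median depth relative to the other cells of the same pool was 1.04 in the day 3 pool of MULTI-seq 3, 1.28 in the pool of days 3.5 and 4 and 1.66 in the pool of days 4.5 and 5. The deposited hybrid doublet score was lower in the cluster than in the other cells of these 3 pools, at medians of 0.117 against 0.196, 0.0551 against 0.164 and 0.0397 against 0.173. It was higher in the few cells of MULTI-seq 1 (0.200 against 0.107) and of pool B of MULTI-seq 2 (0.281 against 0.176). A doublet caller in the table had marked 5 of the 279 cells (1.79%), against 6.85% of all cells. The barcodes of 8 of the cells also occur in another lane, in no case in a cell of the cluster.

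The cluster was rare in every lane and most frequent at day 3. It made up 1.12% of cells in lane A (62 of 5545) and 1.21% in lane B (79 of 6541) of the day 3 pool of MULTI-seq 3. The 4 lanes of days 3.5 and 4 held 0.297%, 0.281%, 0.367% and 0.420%, and the 3 lanes of days 4.5 and 5 held 0.138%, 0.196% and 0.221%. Lanes of different pools did not overlap. Summed by pool, the share was 1.17% (95% exact Clopper-Pearson interval 0.983 to 1.37%) at day 3, 0.343% (0.272 to 0.428%) at days 3.5 and 4 and 0.185% (0.128 to 0.260%) at days 4.5 and 5. These intervals cover counting error only, each pool was prepared once, and day and pool cannot be told apart.

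**Figure D1:**
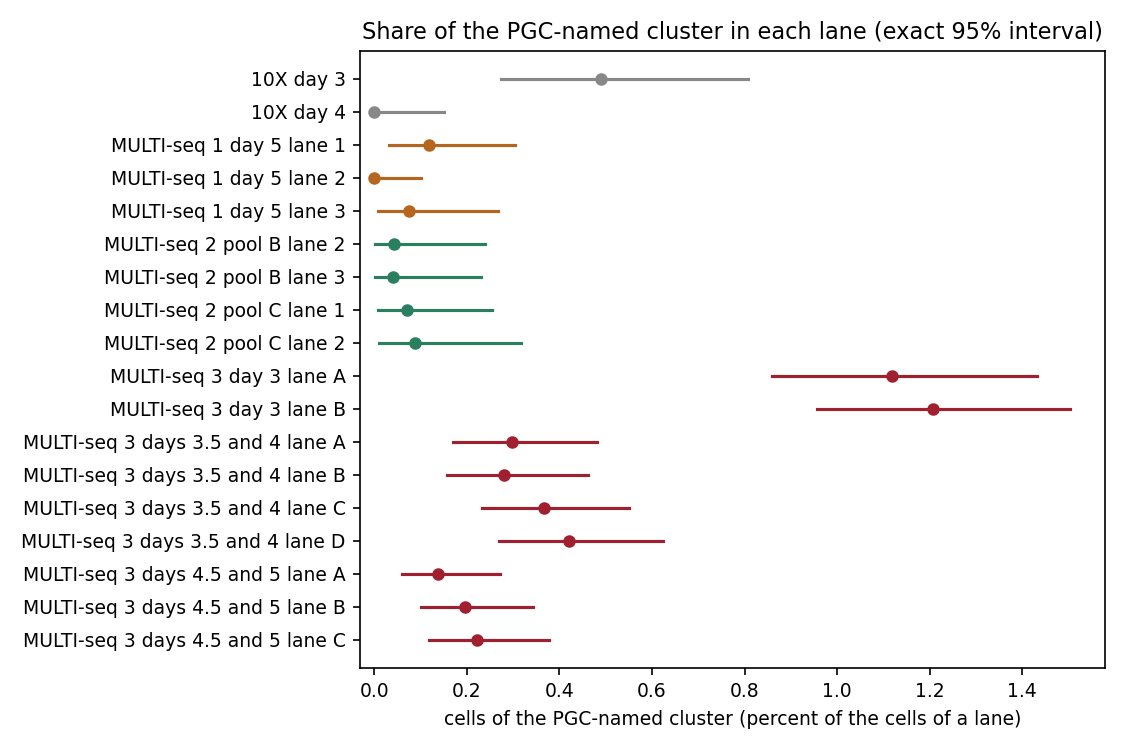
The share of the PGC-named cluster (x axis, percent of the cells of a lane) in each of the 18 lanes (y axis), with points for the share and lines for the exact 95% interval; colours mark the experiment. The 2 day 3 lanes of MULTI-seq 3, at 1.12% and 1.21%, lie to the right of all other lanes.

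Of the other experiments, only the 10X day 3 lane matches a MULTI-seq 3 pool in age. At day 3 the 10X lane held 15 of 3058 cells (0.491%, interval 0.275 to 0.808%), below the interval of the MULTI-seq 3 pool. The 10X day 4 lane held 0 cells of the cluster among 2440, a count that allows up to 0.123%. MULTI-seq 1 held 6 of 9736 cells (0.0616%) at day 5. Pools B and C of MULTI-seq 2, with days 4 and 4.5, held 0.0421% (2 cells) and 0.0783% (4 cells). MULTI-seq 3 thus supplied 252 of the 279 cells (90.3%), and 16 of 18 lanes held at least 1 cell.

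The label was checked against the 4 markers given for it. Where cell types are compared, here and below, each type is summed over all its lanes. The mix of days and experiments differs between types, and its part in these comparisons was not tested. Dppa3, a maternal and germ cell protein that protects DNA from TET-driven demethylation, was at 98.8 CPM (the UMIs of a gene summed over the cells, here 1075, scaled to a common library total), and the next highest cell type, Primitive Streak, was at 0.895, a ratio of 110. Dppa5a, an RNA-binding protein of pluripotent and germ cells, was at 3123 CPM against 88.8 in the Primitive Streak. Ifitm3 (Fragilis), a membrane protein of early germ cells, was at 118 CPM, close to the 100.2 of the Endothelium. Pou5f1 (Oct4), the core pluripotency factor, was at 713 CPM and did not set the cluster apart, since the Primitive Streak was at 723.

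Among the specification factors, Tfap2c was highest in the cluster, at 25.2 CPM against 11.1 in the Caudal Neurectoderm. Prdm1 was at 12.0 CPM, and 3 types were higher, with the Cardiopharyngeal Mesoderm at the top (44.7). Prdm14 was at 1.10 CPM, on 12 UMIs, still the highest value of any type. No UMI of Prdm1, Prdm14 or Tfap2c was found in 144 cells (51.6%). A UMI of 1 of them was found in 87 cells, of 2 in 42 and of all 3 in 6. Detection at this depth misses low transcripts, so a cell without a UMI is not shown to lack the gene.

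Of the later germ cell genes, Nanos3, an RNA-binding protein that keeps migrating germ cells alive, was at 5.70 CPM against 1.80 in the Notochord, the next type. Dnd1, its partner in RNA control, was at 15.3 against 6.08 CPM in the Primitive Streak. Dazl, an RNA-binding protein of germ cells licensed for sex, was at 4.59 against 0.383, and Ddx4 (Vasa), a helicase of more mature germ cells, at 9.92 against 3.83. Nanos2, a gene of male fetal germ cells, had 0 UMIs. Kit, the receptor that migrating germ cells need, was at 11.8 CPM, with the cluster eighth among types. Sox17, needed for human but not mouse germ cell specification, was at 12.1 CPM, against 259 in the Mature Endoderm.

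**Figure D2:**
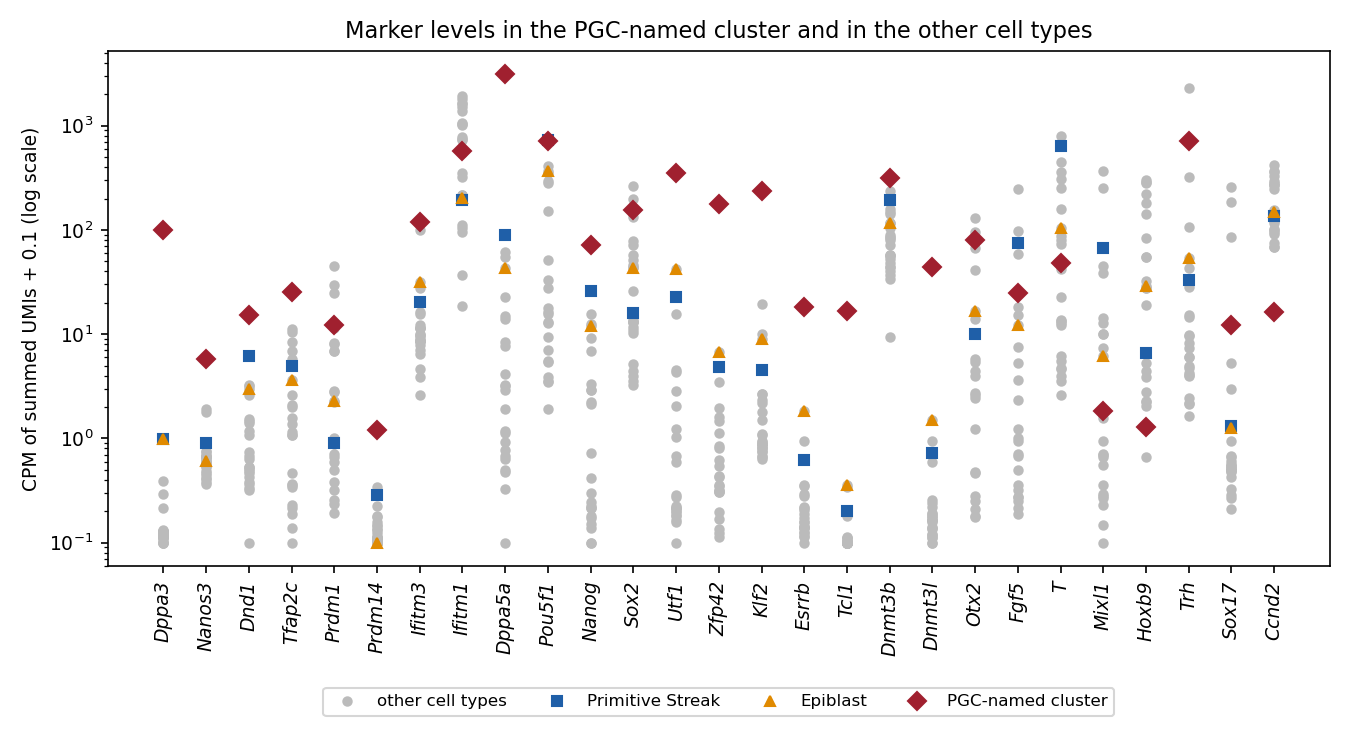
CPM of summed UMIs plus 0.1 (y axis, log scale) for selected genes (x axis) in the PGC-named cluster (red diamonds), the Primitive Streak (blue squares), the Epiblast (orange triangles) and the other cell types (grey points). Dppa3, at 98.8 CPM, stands far above all other types, while Pou5f1 lies at the Primitive Streak level and Ccnd2 lies below every other type.

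The share of cells with a UMI is shown beside a background, since free RNA in droplets gives stray UMIs. Dppa3 was detected in 101 of 279 cells, 36.2% (interval 30.6 to 42.1%), against 0.0324% of Mature Somites cells and 0.0340% of Late Spinal Cord cells, whose median depths were 22316 and 24617 UMIs. With every cell thinned to 5000 UMIs the expected share was 19.2%, and no cell of the cluster was shallower than that. Dppa5a was detected in all 279 cells (97.7% thinned), against 1.27% of Mature Somites cells. Ifitm3 was detected in 62.7% (27.5% thinned), but also in 26.3% of Late Spinal Cord cells (7.03% thinned), where it cannot mark germ cells. Tfap2c was detected in 36.2% (10.2% thinned), against 0.281% of Mature Somites cells (0.0508% thinned). Prdm1 was detected in 27.2% (4.96% thinned), against 10.1% (2.90% thinned) of Mature Somites cells, and Nanos3 in 12.5% (2.49% thinned), against 1.46% (0.305% thinned). In Late Spinal Cord cells Prdm1 was in 1.16% (0.218% thinned), Nanos3 in 0.834% (0.148% thinned) and Tfap2c in 0.800% (0.177% thinned). Summed Prdm1 was at 6.86 CPM in Mature Somites and 0.497 in Late Spinal Cord, so for Prdm1 these 2 backgrounds differ. In the Primitive Streak and the Epiblast, the types most like the cluster, Dppa5a was detected in 54.6% and 36.2% (22.4% and 10.8% thinned). There Dppa3 was detected in 0.458% and 1.26%, Ifitm3 in 32.3% and 49.5% and Tfap2c in 11.3% and 11.6%. Prdm1 was at 2.04% and 4.52% there, and Nanos3 at 2.23% and 1.51%. Mature Somites were not among the types with at least 10 cells in the day 3 pool of MULTI-seq 3, source of 141 cluster cells.

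Dppa3 was spread unevenly over the cells. The highest cell held 55 UMIs, 56 cells held at least 5, and the top 28 cells held 72.1% of the 1075 UMIs. Cells with a Dppa3 UMI more often carried a UMI of Nanos3 (24.8% against 5.62% of cells without one), of Prdm1 (41.6% against 19.1%) and of Tfap2c (53.5% against 26.4%). They less often carried one of Dnmt3b, a de novo DNA methyltransferase of the epiblast (75.2% against 90.4%). The cells with a Dppa3 UMI were deeper, at a median of 40022 against 31054.5 UMIs. The part of that depth gap in these shares was not tested.

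The 20 genes that lead the cluster were taken by a fixed rule of size, the ratio to the highest other type among the 2486 genes with at least 50 CPM in it. Dppa3 came first and was followed by Ooep, a protein of the oocyte's subcortical maternal complex (75.0 CPM, ratio 71.9), and Morc1, which represses transposons in the male germ line (73.2 CPM, ratio 60.4). Dppa5a (ratio 35.2) and Tdrd12, a Tudor protein of the piRNA pathway (81.9 CPM, ratio 26.8), came next. Zfp42 (Rex1), a naive pluripotency marker, was at 177 CPM with a ratio of 26.4. The others were 1700097N02Rik, Fbxo15, Dnah8, Klf2, Tdh, Rhox5, Platr10, Utf1, Hspb1, Rbmxl2, Mybl2, Wfdc2, Zfp985 and Spp1, with ratios from 20.7 down to 3.80. In all, 376 of the 2486 genes were higher than in every other type and 41 (1.65%) at least 2-fold so. Ooep (chr 9, 78376109 to 78378725) and Dppa5a (chr 9, 78367052 to 78368177) are neighbours in the GRCm38 annotation, and so are Dnah8 and 1700097N02Rik on chr 17, which means that 4 of the 20 are not separate places in the genome.

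Over all genes the cluster was most like the Primitive Streak. The Pearson correlation of log2 levels across the 10773 genes compared was 0.943 with the Primitive Streak, 0.933 with the Epiblast and 0.925 with the Early Neurectoderm, given as a description across genes. Against the Primitive Streak, 2.68% of the 10765 genes that reached 10 CPM in some type were at least 2-fold higher and 3.34% at least 2-fold lower, and 6.71% were higher in the cluster than in every other type. The specification list holds Prdm1, Prdm14 and Tfap2c with Ifitm1, Ifitm3 and Sox17, and all 5 members that reached 10 CPM in some type were at least 2-fold higher than in the Primitive Streak. Of these, Sox17 had a UMI in only 14 cells of the cluster, and a set of 18 cells described below held 121 of its 132 UMIs. Ifitm1 was higher in 12 other types. At least 2-fold higher were also 7 of 13 early germ cell genes, 6 of 10 core pluripotency genes and 10 of 12 naive embryonic stem cell genes, and no member of these 4 lists was 2-fold lower. These lists include genes by which the cluster may have been named, so the counts are descriptive.

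The naive genes held the largest share of 2-fold higher members of the lists with at least 10 members. Tcl1, a cofactor of AKT signalling, was at 16.7 CPM against 0.255 in the next type, and Nr0b1 (Dax1), a nuclear receptor of naive cells, at 15.3 against 0.383. Esrrb, another nuclear receptor of the naive network, was at 18.2 CPM against 1.72, the transcription factor Klf2 at 238 against 19.4 in the Endothelium and Tfcp2l1 at 23.4 against 6.13. The cluster ranked highest for 8 of the 12. Klf4 was not among them, at 4.32 CPM against 12.9 in the Early Anterior PSM. Among core factors, Nanog was at 72.3 CPM against 25.9 in the Primitive Streak, Utf1 at 351 against 42.1 in the Epiblast and L1td1 at 352 against 171. Sox2, which neural cells also use, was at 155 CPM against 264 in the Late Spinal Cord.

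The primed epiblast genes were mixed, with 3 of 10 at least 2-fold higher and 2 at least 2-fold lower than in the Primitive Streak. Otx2, a primed epiblast factor that restrains germ cell entry, was at 80.5 CPM against 9.85 in the Primitive Streak. Foxd3 was at 10.6 CPM against 1.15 in the Epiblast, the next type. Fgf5, a growth factor of the primed epiblast, was at 25.0 CPM, lower than the 75.6 of the Primitive Streak but above the 12.1 of the Epiblast. Against the Epiblast 4 of the 10 primed genes were at least 2-fold higher and 1 lower, where 280 and 664 of all 10765 genes were. Of streak and mesoderm genes, which mark the Primitive Streak itself, 0 of 21 were at least 2-fold higher and 11 at least 2-fold lower than there. Against the Epiblast 1 was at least 2-fold higher and 6 lower, where 280 and 664 of all 10765 genes were. Brachyury, the gene T, was at 48.2 CPM against 637 in the Primitive Streak, and Mixl1 at 1.75 against 67.2. Hoxb9, a gene of the trunk, was at 1.19 CPM against 301 in the Late Spinal Cord.

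The DNA methylation genes were split. Dnmt3b was higher in the cluster than in any other type, at 318 CPM against 236 in the Early Neurectoderm, and so was its catalytically inactive partner Dnmt3l, at 44.5 against 1.40 in the Epiblast. Tet1, which oxidises 5-methylcytosine, was also highest, at 142 against 76.9 CPM. Tet3 was lower than in any other type, at 4.59 CPM against a median of 33.3 over the others, as were the glycosylase Tdg (58.2) and Uhrf2 (48.7). Being lowest was common: it held for 29.5% of the 10765 genes that reached 10 CPM in a type. Uhrf1, which directs maintenance methylation and is known to be low in migrating germ cells, was at 97.1 CPM against a median of 114 over the other types, and ranked 17 of 25. Of the list, 2 of 11 were at least 2-fold higher and 2 at least 2-fold lower than in the Primitive Streak. Among histone modifiers, Suz12 (162 CPM) and Eed (87.2) of Polycomb complex PRC2 were highest in the cluster, whereas the PRC2 methylase Ezh2 (162 CPM against a median of 314) and the H3K9 methylase subunit Ehmt1 (72.3 against 120) were lowest of the 25 types.

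Several signalling genes were also among that 29.5% of genes. Id1 and Id2, direct targets of BMP signalling, were at 27.8 and 4.32 CPM against medians of 86.1 and 35.9 over the other types, and the receptors Bmpr1a (20.2) and Bmpr2 (5.24) and the effectors Smad1 (21.9) and Smad5 (9.19) were also lowest. Of the 22 BMP, Nodal and Wnt genes compared, 3 were at least 2-fold higher and 5 at least 2-fold lower than in the Primitive Streak. Of 16 cell cycle genes 0 were at least 2-fold higher and 3 at least 2-fold lower than in the Primitive Streak, and they lay across the whole range. Ccnd2, a D-type cyclin, was at 16.3 CPM against a median of 142 over the other types, and Ccnd3 was also lowest of the 25 types. The mitotic cyclin gene Ccnb1, at 180 CPM, was higher than in any other type (177 in the Late Neurectoderm), and the replication genes Mcm2 (93.7 CPM) and Mcm5 (115 CPM) ranked 3 of 25. Of 14 imprinted genes 1 was at least 2-fold higher and 2 at least 2-fold lower, and Cdkn1c at 28.7 CPM (median of the other types 154), Peg3 at 86.7 (323) and Igf2 at 1.84 (49.8) were lowest of the 25 types. The adhesion gene Cdh2 (N-cadherin) was at 13.6 CPM against 163, while Cdh1 (E-cadherin) at 77.0 and Epcam at 363 ranked behind the Mature Endoderm alone.

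Markers of other cell types were mostly near 0. The endothelial genes Cdh5 and Kdr had 0 and 4 UMIs, although Pecam1, which pluripotent cells also make, was at 21.7 CPM, level with the Endothelium. No neural gene of 10 was at least 2-fold higher than in the Primitive Streak and 2 were at least 2-fold lower. Among 12 endoderm genes, 3 were at least 2-fold higher and 2 at least 2-fold lower. Trh, the thyrotropin-releasing hormone precursor, was at 711 CPM, second to the Mature Endoderm (2317). Spink1 was at 34.6 CPM and Krt8 at 37.9, also far under the Mature Endoderm values of 585 and 489.

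The authors had mapped each cell onto embryo references, and the 2 mappings in the table differ for these cells. In the extended reference 259 of the 279 cells (92.8%) were Epiblast, 15 Primitive Streak, 4 Anterior Primitive Streak, 1 Gut tube and 0 PGC. In the first reference 155 cells (55.6%, interval 49.5 to 61.5%) were Epiblast, 106 (38.0%, interval 32.3 to 44.0%) PGC and 18 another type, most of them Def. endoderm (7) or Primitive Streak (5). Median mapping scores were high in both, 0.967 and 0.933, against 0.833 and 0.733 in other cells. The cells that the extended reference does name PGC, 136 in all, lie in other clusters and had Dppa3 at 0.880 CPM, Dppa5a at 25.2 and T at 389. The 934 cells outside the cluster named PGC by the first reference had Dppa3 at 5.18 CPM and Dppa5a at 141, far under the cluster. The name thus met a mixed check. Dppa3, Dppa5a, Nanos3, Prdm14 and Tfap2c were higher than in any other type, and Ifitm3 was so by a ratio of 1.18. Other types were higher for Pou5f1, Prdm1, Kit, Sox17 and Ifitm1 (577 CPM against 1911 in the Early Anterior PSM), and both references placed most of its cells in the Epiblast. It is called the PGC-named cluster here for that reason.

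Split by the first reference, the cells mapped to PGC and those mapped to Epiblast differed in genes of the specification list, in epiblast genes and in some of the germ cell genes. The mapping uses the same genes, so these levels are descriptions, and they sum all lanes although the mix of pools differs between the 2 sets. The 106 PGC-mapped cells had Dppa3 at 223 CPM against 27.4 in the 155 Epiblast-mapped cells, Nanos3 at 13.4 against 0.862, Tfap2c at 47.6 against 12.4, Prdm1 at 18.2 against 5.52 and Ifitm3 at 221 against 64.7. The X-linked homeobox genes Rhox6 and Rhox9, which germ cells express, were at 17.7 against 0.345 CPM and 17.4 against 1.03. Of other germ cell genes, Ddx4 (Vasa) was at 5.89 against 13.4 CPM and Fkbp6 at 3.48 against 5.52, neither past 2-fold on the scale with the pseudocount. Sycp3 was at 78.4 against 98.8 CPM over all lanes but at 133 against 106 CPM within the day 3 pool. Epiblast genes were lower in the PGC-mapped cells, with Dnmt3b at 92.6 against 447 CPM, Fgf5 at 5.35 against 29.5, Pou3f1 at 8.56 against 37.4 and Otx2 at 44.1 against 100.3. Pou5f1 was similar, at 677 against 789 CPM. All 4 genes of the specification list that reached 10 CPM were at least 2-fold higher in the PGC-mapped cells, where 0.931% of 7092 genes were. Of 16 early germ cell genes 5 were at least 2-fold higher and 0 at least 2-fold lower. Of 9 primed epiblast genes 5 were at least 2-fold lower, where 0.705% of genes were. Within the day 3 pool alone 0 of 3 genes of the specification list were 2-fold higher and 2 of 8 primed genes 2-fold lower, where 0.419% of 6913 genes were higher and 0.853% lower. There Dnmt3b was at 163 against 386 CPM, Fgf5 at 8.94 against 38.6 and Otx2 at 74.8 against 92.97.

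**Figure D3:**
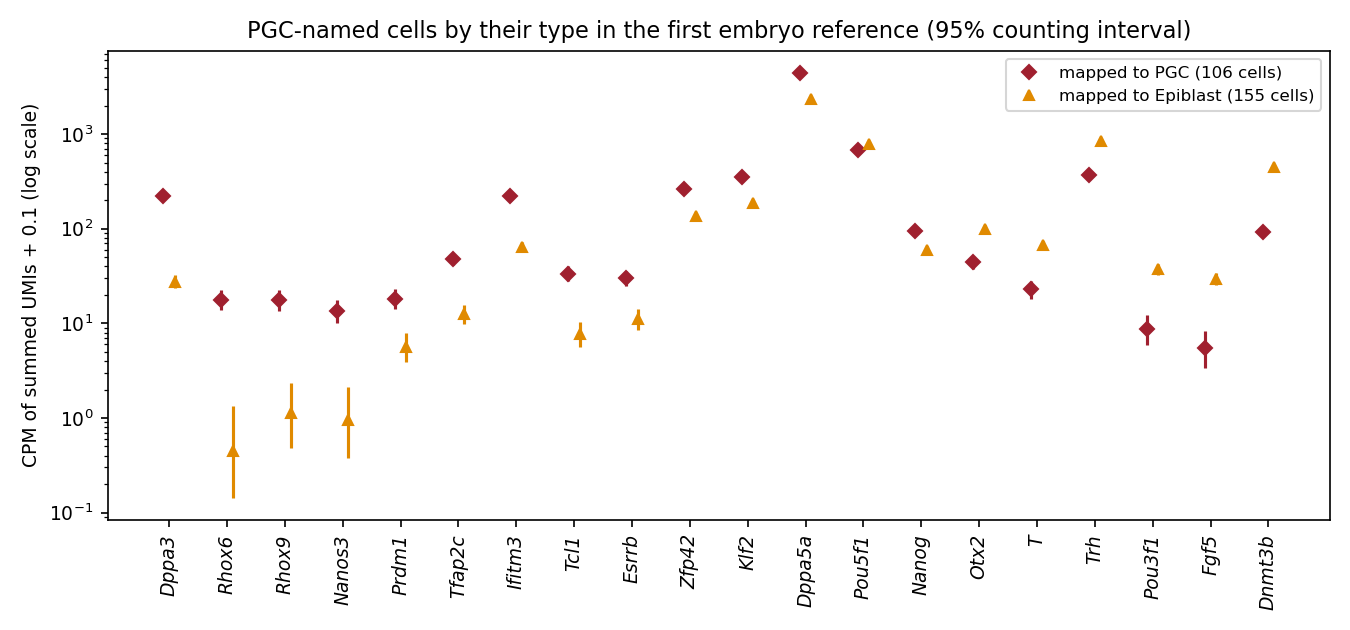
CPM of summed UMIs plus 0.1 (y axis, log scale) of selected genes (x axis) in the 106 cells of the PGC-named cluster mapped to PGC (red diamonds) and the 155 mapped to Epiblast (orange triangles), with 95% counting intervals as vertical lines. Dppa3 stood at 223 against 27.4 CPM and Dnmt3b at 92.6 against 447, while Pou5f1 lay close together.

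Within MULTI-seq 3, the PGC-mapped share of the cluster was largest in the last pool. It was 41 of 141 cells (29.1%, interval 21.7 to 37.3%) in the day 3 pool, 29 of 78 (37.2%, 26.5 to 48.9%) in the pool of days 3.5 and 4 and 24 of 33 (72.7%, 54.5 to 86.7%) in the pool of days 4.5 and 5. The interval of the last pool did not overlap those of the others. These intervals cover counting error only, each pool was prepared once, and day and pool cannot be told apart. In the 10X day 3 lane 9 of 15 cells mapped to PGC (60%, interval 32.3 to 83.7%). In MULTI-seq 1, at day 5, 0 of 6 cells mapped to PGC and 3 to Epiblast. In the MULTI-seq 2 pools 1 of 2 and 2 of 4 cells mapped to PGC, too few to place these experiments in that order.

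Gene levels in the cluster also differed between the 3 MULTI-seq 3 pools. Dppa3 was at 31.6 and 36.5 CPM in the lanes of day 3, at 146, 69.5, 185 and 102 in lanes A to D of days 3.5 and 4, and at 171, 248 and 189 in lanes A to C of days 4.5 and 5. The day 3 lanes lay below all others, and the 2 later pools overlapped. Summed by pool, Dppa3 was at 34.3, 125 and 207 CPM. Ifitm3 was at 28.3 and 32.9 CPM, then 92.0, 118, 204 and 135, then 387, 193 and 386, again with day 3 below all other lanes. Nanos3 summed to 1.52, 7.38 and 13.4 CPM, and lane A of day 3 had 0. Tfap2c summed to 15.6, 22.9 and 54.6 CPM, with lane B of days 3.5 and 4 at 8.56 while its other lanes were at 26.1 to 28.6. The X-linked Rhox6 (0.651, 5.85 and 22.8 CPM) and Rhox9 (0.868, 7.89 and 19.5) followed the same order.

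The pluripotency genes differed in their pattern. Dppa5a was at 1841 and 1514 CPM in the day 3 lanes, at 3381, 3733, 4302 and 3995 in the lanes of days 3.5 and 4, and at 6316, 4529.7 and 5489 in those of days 4.5 and 5, so that no pool overlapped another. Zfp42 was at 112 and 86.9 CPM at day 3 and between 191 and 301 in the 7 later lanes. Pou5f1 differed little, at 772 and 731 CPM, then 695, 772, 719 and 645, then 648, 586 and 710.2. In the other cells of the same lanes Pou5f1 summed to 695, 117 and 5.44 CPM. The low level of the other cells in the last pool was thus not seen in the cluster. Its name rests on gene expression and Pou5f1 is a marker given for it, so cells that lost Pou5f1 may lie in other clusters.

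**Figure D4:**
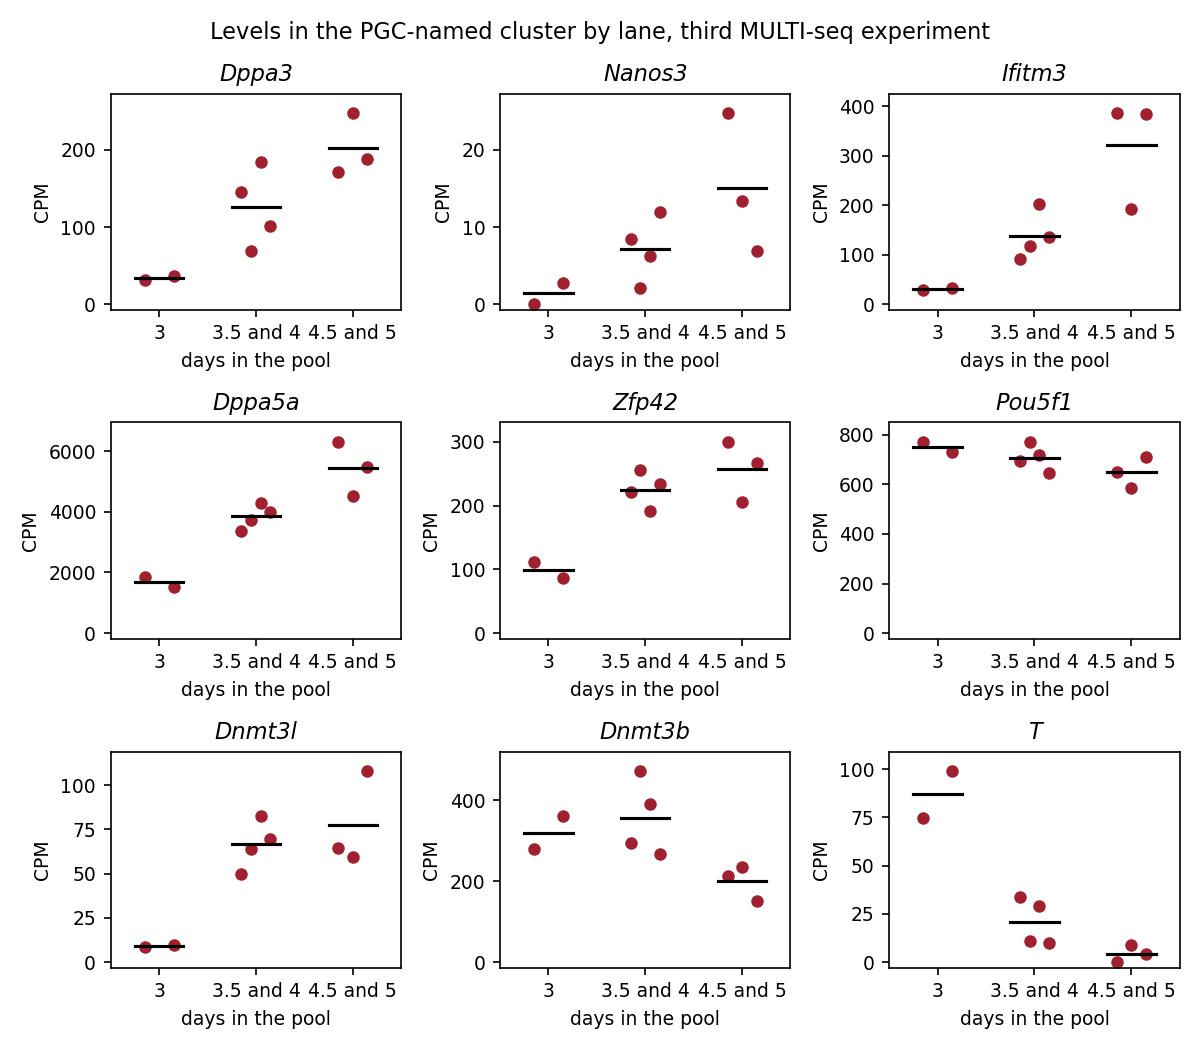
Levels in the PGC-named cluster (y axis, CPM of summed UMIs) in each lane of the 3 MULTI-seq 3 pools (x axis, days in the pool) for 9 genes, with 1 point for each lane and a black line at the mean over lanes. Dppa5a lies at 1514 to 1841 CPM at day 3 and at 4529.7 to 6316 in the last pool, while T lies highest at day 3.

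The methyltransferase genes parted. Dnmt3l was at 8.62 and 9.92 CPM at day 3 and between 49.7 and 108 in the 7 later lanes. Dnmt3b was at 280 and 362 CPM at day 3, between 269 and 474 at days 3.5 and 4, and at 214, 237 and 151 at days 4.5 and 5, below every earlier lane. The streak gene T was at 74.7 and 99.2 CPM at day 3, between 10.1 and 33.9 at days 3.5 and 4 and at 0, 8.93 and 4.16 at days 4.5 and 5. T was also lower in the other cells of the later pools, at 463, 150.1 and 37.4 CPM.

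Between the last pool and the day 3 pool, with a pseudocount of 5 CPM, 2.66% of 7110 genes were at least 2-fold higher and 2.53% at least 2-fold lower in the cluster. All 5 genes of the specification list that reached 10 CPM were at least 2-fold higher, with a median log2 difference of 2.04 against 0.36 in the other cells of the same lanes. They were Prdm1, Tfap2c, Ifitm1, Ifitm3 and Sox17, and Prdm14 did not reach 10 CPM. Sox17 rests on few cells, as given below. Of early germ cell genes 9 of 17 were at least 2-fold higher and 0 lower, at a median of 1.04 against -0.16. Of naive genes 5 of 10 were at least 2-fold higher and 0 lower, at a median of 0.93. Core pluripotency genes had a median of 0.13 in the cluster and -2.09 in the other cells. The cluster may have been named by such genes, and the types among the other cells differ between pools, so this contrast is descriptive. Primed epiblast genes had 0 of 9 past 2-fold in either direction. Endoderm genes were at least 2-fold higher in 5 of 8 and lower in 1, at a median of 1.65 against 0.51 in the other cells. The median over all genes was -0.01. No gene was tested between days of a pool, since 0 gastruloids of day 3.5 or day 4.5 held 5, or even 3, of these cells with a gastruloid call. At 3 or more cells there were 10 gastruloids of day 3 and 3 of day 4. Those days lie in different pools, so day and pool cannot be told apart, and a test between them was not run.

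The pool of days 3.5 and 4 already stood apart from day 3, where 2.64% of 7279 genes were at least 2-fold higher and 0.385% lower. Genes of the specification list were at least 2-fold higher in 4 of 5, at a median log2 difference of 1.45 against 1.20 in the other cells of the same lanes. Naive genes were so in 6 of 11, at 1.10 against -0.03, and endoderm genes in 4 of 6, at 1.98 against 1.37. From days 3.5 and 4 to days 4.5 and 5, 0.259% of 7333 genes were at least 2-fold higher and 2.4% lower. There genes of the specification list were higher in 2 of 5 and naive genes in 0 of 11, with 2 naive genes lower. Imprinted genes were at least 2-fold lower in 5 of 11, at a median of -0.53 against -0.20 in the other cells. BMP, Nodal and Wnt genes were so in 4 of 13, at a median of -0.40 against -0.82 in the other cells.

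Levels also differed between pools within the PGC-mapped cells alone. In them Dppa3 was at 83.7, 314 and 288 CPM in the 3 pools, Dppa5a at 2432, 4868 and 6266, Ifitm3 at 43.1, 232 and 424, and Dnmt3l at 7.32, 72.4 and 81.1. Dnmt3b was at 163, 62.0 and 47.1 CPM and T at 53.7, 6.03 and 1.74. In the Epiblast-mapped cells, 99 at day 3 and 40 at days 3.5 and 4, Dppa3 was at 13.8 and 47.3 CPM, Dnmt3l at 10.2 and 76.6 and T at 98.6 and 21.6. Their Dnmt3b was not lower in the later pool, at 386 against 499.6 CPM.

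The 15 cells of the 10X day 3 lane did not match the MULTI-seq 3 cells of the same day in several genes. Zfp42 was at 234 CPM there against 98.3, Klf2 at 454 against 189 and Dnmt3l at 73.4 against 9.33. Dppa3 was at 179 CPM, but 1 cell held 61.5% of its UMIs. Rhox5, an X-linked homeobox gene, was at 18.4 against 139 CPM. The experiment, the lane and its lower depth cannot be told apart here.

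Most UMIs of Sox17, Krt8 and Spink1 came from few cells. The 18 cells that the first reference mapped to neither PGC nor Epiblast held 121 of the 132 UMIs of Sox17, 325 of the 413 of Krt8 and 372 of the 377 of Spink1. They had Dppa5a at 2668 CPM and Zfp42 at 123, against 3123 and 177 in the whole cluster. Without them Sox17 was at 2.90 and 0.707 CPM in the 2 later pools, against 22.4 and 23.9 with them, and Spink1 at 0.966 and 1.41 against 20.4 and 160.4. Krt8 was at 14.5 and 3.53 CPM without them, against 60.8 and 66.8 with them. Sox17 is a member of the specification list and all 3 are endoderm genes, so their places in the counts by pool rest on these cells. Trh was not confined to them, with a UMI in 77 of 78 and 31 of 33 cells of the later pools. It was detected in 8.43% of Late Spinal Cord and 3.47% of Mature Somites cells. Dppa3 (147 and 239.5 CPM), Ifitm3 (152 and 389) and Tfap2c (23.5 and 65.0) were as high or higher without them.

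Across single cells, the Spearman correlation of Dppa5a and Zfp42 levels was 0.53 over 141 cells of the day 3 pool, 0.58 over 78 cells and 0.49 over 33 cells of the later pools. Zfp42 and Dnmt3b were inversely related, at -0.36, -0.61 and -0.23. Cells of a pool come from the same few lanes and differ in depth. Dppa5a itself correlated with total UMIs at -0.03, -0.22 and -0.52, and Zfp42 at 0.08, -0.14 and -0.30. These values describe the cells and are not tests.

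The number of these cells in a gastruloid was small. At day 3, 22 of 24 gastruloids of MULTI-seq 3 held at least 1 called cell of the cluster, at 1.02% ± 0.654 (SD, n = 24) of the called cells and at most 6 cells. The variance between gastruloids was 0.967 of the binomial value, so no spread beyond counting was seen. At day 3.5 the share was 0.0195% ± 0.0779 (n = 16, 1 gastruloid with a cell) and at day 4 0.121% ± 0.124 (n = 16, 9 with a cell). At day 4.5 it was 0.0307% ± 0.0838 (n = 16, 2 with a cell) and at day 5 0.127% ± 0.135 (n = 16, 9 with a cell).

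Within a pool of MULTI-seq 3, the later day had the higher mean share of called cells in the cluster. Day 4 exceeded day 3.5 by 0.101 percentage points (two-sided permutation test, p = 0.0110, adjusted p = 0.0275 over 5 comparisons). Day 5 exceeded day 4.5 by 0.0964 points (permutation p = 0.0197, adjusted p = 0.0329). Counted by the first reference's name PGC, most of whose cells lie outside the cluster, day 4 was lower than day 3.5, at -3.31 points (adjusted p = 6e-05 by the permutation test, from the smallest p the resamples can give), and day 5 against day 4.5 stood at 0.0508. By the extended reference's name the differences were -0.363 (adjusted p = 0.204 by the permutation test) and -0.0410 points. Within lanes, which the days of a pool share, day 4 was above day 3.5 in 4 of 4 lanes and day 5 above day 4.5 in 2 of 3. An exact sign-flip test over lanes gave p = 0.125 and p = 0.500, where the smallest possible were 0.125 and 0.250. The gastruloids of the earlier day had fewer called cells, at medians of 288 against 854 and 279 against 697, and the differences lost the threshold when single lanes were left out: the adjusted p was 0.0536, 0.121 and 0.0942 without lanes A, B and D for day 4, and 0.318 and 0.410 without lanes B and C for day 5. The day 5 difference was 0.0567 points without lane C and 0.159 without lane A. At day 4, the mean was 0.121% in MULTI-seq 3, and 0 of 1510 called cells of MULTI-seq 2 were in the cluster, which allows up to 0.199% of called cells. That is no limit on all cells, since the 2 cluster cells of its pool B had no gastruloid call. Of the other cells of pool B 89.1% had one. A lower share in MULTI-seq 2 was therefore not detectable at this depth, with medians of 143 called cells per gastruloid against 854. The permutation test, which takes no account of that depth, gave p = 0.00528 (adjusted p = 0.0264), and was not past the threshold without lane B (adjusted p = 0.121), with a minimum of 100 called cells (adjusted p = 0.0705) or in edgeR's quasi-likelihood test of cell numbers (adjusted p = 0.0880). At day 4.5 the difference was 0.0307 points (adjusted p = 0.491 by the permutation test). There 0 of 2707 called MULTI-seq 2 cells were in the cluster (up to 0.111% of called cells), again with the uncalled cells of pool B left out. At day 5, MULTI-seq 3 and MULTI-seq 1 differed by 0.0735 points (adjusted p = 0.299 by the permutation test), and passed the threshold without lane 3 of MULTI-seq 1 (adjusted p = 0.0294) and in edgeR's test (adjusted p = 0.0489), and, counted by the first reference's name PGC, at 0.103 points (adjusted p = 0.0175 by the permutation test). It was 0.0396 points without lane 2 of MULTI-seq 1 and 0.0482 without lane C of MULTI-seq 3. By the extended reference's name it was -0.0460. The day 5 difference from day 4.5 was not past it in edgeR's test (adjusted p = 0.104). These p-values measure the spread between gastruloids of 1 cell line. They do not cover the cells without a call, whose day within a pool is not known. In the pool of days 3.5 and 4 only 19 of 78 cluster cells had a call, 24.4% against 81.3% of the other cells. The part of missing calls in the differences between days was not tested.

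These shares rest on the minority of the cluster's cells with a gastruloid call. Of 260 cells in lanes with calls, 97 (37.3%) were assigned to a gastruloid, 145 (55.8%) had no barcode call and 18 were called doublets. In the 3 pools of MULTI-seq 3 the called share was 41.1% (interval 32.9 to 49.7%), 24.4% (15.3 to 35.4%) and 51.5% (33.5 to 69.2%), against 47.9%, 81.3% and 88.1% of the other cells. The share was lower in the cluster in 9 of 9 lanes, by a mean of -39.0 percentage points (SD 21.0, range -63.9 to -4.33), with an exact two-sided sign-flip permutation p of 0.00390625, the smallest that 9 lanes can give. The lanes are splits of 3 pools, so that p does not count independent samples. The difference was -26.1 points (SD 16.8) from the Primitive Streak and -28.4 (SD 17.1) from the Epiblast. Among types with at least 10 cells the called share of the cluster was the lowest of 23 in both later pools. In the day 3 pool it ranked 2 from the lowest of 14, behind the Early Spinal Cord (35.7%) and next to Neurons (41.2%).

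**Figure D5:**
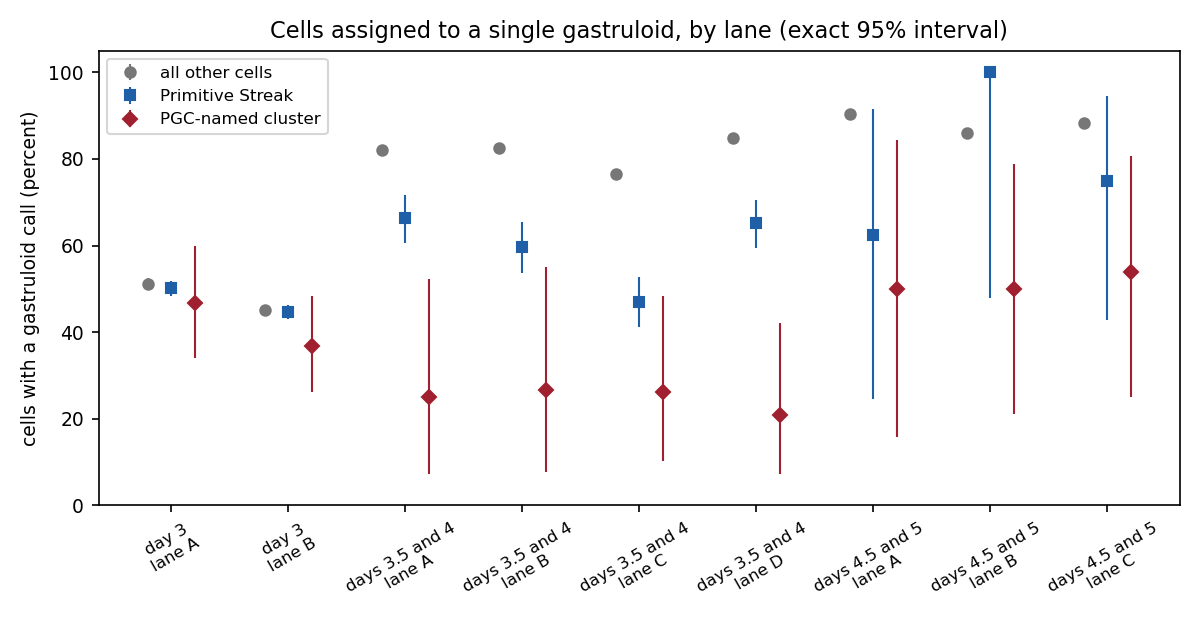
Share of cells assigned to a single gastruloid (y axis, percent) in the 9 lanes of MULTI-seq 3 (x axis) for the PGC-named cluster (red diamonds), the Primitive Streak (blue squares) and all other cells (grey points), with exact 95% intervals as vertical lines. The cluster lies below the other cells in 9 of 9 lanes, by -63.9 to -4.33 points.

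Cells with a call differed in some genes from those without one. Over 94 called and 158 uncalled cells of MULTI-seq 3, Dppa3 was at 82.3 against 109 CPM, Ifitm3 at 87.3 against 142, Rhox5 at 104 against 197 and Zfp42 at 139 against 195, while Nanos3 was at 5.74 against 5.85. The day mix of the 2 sets differs, and its part in these values was not tested.

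The share of the cluster in a gastruloid was set against the shares of Mature Endoderm, Primitive Streak, Caudal Epiblast and all neural types at days 3, 4 and 5 of MULTI-seq 3. None of the 12 relations passed an adjusted p of 0.05. The lowest unadjusted Pearson p was for the Primitive Streak at day 5, with r = 0.49 (permutation p = 0.0418, adjusted p = 0.311) and Spearman rho = 0.42 (p = 0.106) over 16 gastruloids, and r = 0.47 without the 2 gastruloids farthest from the median. Its sign was not kept when single lanes were left out, with the range given in the closing section. By rank, Mature Endoderm at day 5 had rho = 0.60 (permutation p = 0.0163, adjusted p = 0.129) with r = 0.37 (p = 0.159), and neural types at day 4 had rho = -0.57 (permutation p = 0.0215, adjusted p = 0.129) with r = -0.39 (p = 0.102).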

How the data were processed

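Single-cell RNA libraries of gastruloids were deposited as 1 matrix of UMI counts for each of 18 lanes, with a cell table that gives cluster, embryo-reference types, gastruloid and day. Cell Ranger 6.0.0, Seurat and the mm10 genome are named in the submitters' processing notes. The authors filtered the cells: 46.0 to 81.3% of a lane's barcodes are in the table, and 9 table cells without a matching barcode were left out. Mapping scores are the fraction of reference neighbours with the mapped name, computed by the authors, per the file headers. Doublet scores are the authors', per the file headers, and no doublet caller was run here. UMI counts, as deposited, were summed over cells and divided by the summed total to give CPM. Shares have exact Clopper-Pearson intervals and CPM exact Poisson intervals, at 95%, which cover counting error only. A count of 0 allows 3 counts. Detection was also given as the expected share after thinning each cell to 5000 UMIs. Log2 differences use a pseudocount of 5 CPM, for genes at 10 CPM or more in a compared group, and a 2-fold threshold. Shares per gastruloid (at least 30 called cells) were compared by two-sided permutation tests with 100000 resamples and Benjamini-Hochberg adjustment, with edgeR 4.0.16 in R 4.3.3 as an alternative on cell numbers. Python 3.11.15, numpy 2.4.6, pandas 2.3.3 and scipy 1.17.1 were used. The permutation test of shares and the exact interval were checked on simulated data, and the other tests were not. The simulated shares and cell numbers did not match those of the sparsest comparisons. The gene tests planned between the days of a pool had no gastruloid of day 3.5 or 4.5 with 5, or with 3, cells of the cluster and were not run. Named genes were the 20 with the largest ratio to the next type at 50 CPM or more, and members of 17 lists with 224 genes, of which 223 were found. The cluster, the lists and the markers were chosen with earlier results of these data known.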

Additional observations from a re-analysis of the deposited data

Results flagged for a closer look

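Tfap2c in lane B of the pool of days 3.5 and 4 lay far from the other lanes of that pool, at 8.56 CPM against 26.1 to 28.6 in the others. Chance sets such a value apart in about 1 in 20 groups, and 12 groups were examined.

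For some genes every lane of 1 pool lay on 1 side of every lane of another in the cluster, while the summed other cells of those lanes differed the opposite way. Only members of the lists and the 20 lead genes were examined, and the share of all genes with this pattern was not computed. The lead genes had been picked for being high in the cluster. The other cells sum all other types, and their mix differs between pools. The Primitive Streak, for example, had 6944 cells in the day 3 pool and 25 in the last. The part of that mix was not tested, nor were the differences between cluster and other cells. Between the pool of days 4.5 and 5 and the day 3 pool the log2 difference was 1.53 for Tfap2c (other cells -1.08), 1.67 for Dppa5a (-2.69) and 1.54 for Lefty1 (-1.91), a Nodal antagonist. It was 2.09 for the small heat shock gene Hspb1 (-1.46), 1.06 for Rbmxl2 (-1.82) and 2.14 for Wfdc2 (-1.12). The opposite pattern held for Trh, at -1.75 (other cells 1.77), and for the chemokine Cxcl12, at -1.15 (2.96). Between the pool of days 3.5 and 4 and day 3 Dppa5a had 1.21 (-1.95). Between the 2 later pools Tcf15, a factor of paraxial mesoderm, had -1.28 (1.25).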

How the results depend on the processing

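For the share comparisons, relations and barcode calls, 89 tested alternative values kept their direction and side of the threshold, 9 reversed, 14 lost the threshold and 3 gained it. The 5 differences over pooled cells, with no test, moved by less than 1 SD. For single genes, 39 alternative levels or detection shares moved by more than their counting interval and 51 did not. A minimum of 100 called cells left MULTI-seq 3 against MULTI-seq 2 at day 4 at 0.121 points (adjusted p = 0.0705 by the permutation test). Counting cells that the extended reference names PGC gave -0.363 points for day 4 against 3.5, -0.0410 for day 5 against 4.5, 0.00426 for MULTI-seq 3 against 2 at day 4 and -0.0460 against MULTI-seq 1 at day 5. The first reference, chosen after seeing the data, gave -3.31 (adjusted p = 6e-05 by the permutation test), 0.0508, 0.307 and 0.103 (adjusted p = 0.0175 by the permutation test) points for the same comparisons, and -0.122 against MULTI-seq 2 at day 4.5. Most cells so named lie outside the cluster. On cell numbers, edgeR's quasi-likelihood test gave a log2 difference of 1.75 for day 4 against 3.5 (adjusted p = 0.0489) and 1.26 for day 5 against 4.5 (adjusted p = 0.104). Against MULTI-seq 2 the same edgeR test gave 2.72 at day 4 (adjusted p = 0.0880) and 0.878 at day 4.5 (adjusted p = 0.173). Against MULTI-seq 1 at day 5 edgeR gave 1.39 (adjusted p = 0.0489).

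Without each lane in turn, the differences were 0.0895 to 0.131 points for day 4 against 3.5, 0.0567 to 0.159 for day 5 against 4.5, 0.114 to 0.131 and 0.0307 to 0.0452 against MULTI-seq 2 at days 4 and 4.5, and 0.0396 to 0.106 against MULTI-seq 1 (0.0991 without its lane 3, adjusted p = 0.0294 by the permutation test). The correlation with Mature Endoderm ranged from -0.210 to 0.481 at day 3, and with Primitive Streak over -0.0139 to 0.469 at day 3, over -0.243 to 0.260 at day 4, and over -0.195 to 0.620 at day 5. The difference in called cells ranged from -43.3 to -35.9 points. The cause was not tested.

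With the lane as a replicate block, added after seeing the data, the mean within-lane difference was 0.108 points for day 4 against 3.5 (exact sign-flip p = 0.125, the smallest that 4 lanes allow) and 0.0927 for day 5 against 4.5 (exact p = 0.500, where 3 lanes allow 0.250). Lanes are technical splits of a pool, and each gastruloid is spread over them. Lane numbers pair nothing between pools. The gene tests between days of a pool and their alternatives, and MULTI-seq 2 day 4.5 against day 4, where no called cell was in the cluster, were not run.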
